A study of Mus musculus with 6 samples.

Results

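The genes of the cytoplasmic ribosome examined here were 44 ribosomal protein genes, taken from a fixed list of symbols as protein-coding entries of the GENCODE annotation of the mouse genome (build mm9, NCBI Build 37), with processed pseudogene copies left out. All 44 were found once, among 22367 protein-coding genes on chromosomes 1 to 19, X and Y. They comprised 24 proteins of the large subunit, 3 proteins of its stalk (Rplp0, Rplp1, Rplp2) and 17 proteins of the small subunit. The rule that lists them uses symbols and no read count, but the list was drawn up with earlier results of these data known. The study asked where acetylation of histone H4 at lysine 5 (H4K5ac) lies in the hippocampus of mice that were tested for a contextual fear memory. One group had been fear-conditioned with a foot-shock in 2 sessions (FC), and the other had only been exposed to the same context (CON); memory was tested on day 3 and hippocampi were collected 1 h later. All were mice labelled as C57/BL6 and 6 months old (C57Bl6/J males in the study's methods), and the labels name no transgene or drug in either group. Each group had 1 H4K5ac chromatin immunoprecipitation library (H4K5ac-ChIP), 1 mock immunoprecipitation with immunoglobulin G (IgG-IP) and 1 library of unprecipitated DNA (input), 6 libraries in all, and the study cross-linked 3 hippocampal samples per group. The methods describe immunoprecipitation from each sample and a pooling of libraries after gel purification. They do not say which samples entered each deposited library. With 1 library per group there was no replicate error, so every interval given here covers counting error only, a difference compares libraries and not conditions, and no p-value is given.

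Ribosomal proteins assemble with ribosomal RNA into the large and small subunits, and cells need them in near-equal amounts, so their genes count as housekeeping genes that are transcribed strongly in nearly every tissue. Most of their promoters lie in CpG-rich sequence, and many transcripts start at a cytosine followed by a stretch of pyrimidines, the terminal oligopyrimidine (TOP) tract, through which mTOR signalling controls their translation. In neurons, translation at synapses draws on these proteins. H4K5ac is a mark of active chromatin that is written by acetyltransferases and read by bromodomain proteins, and it is usually densest near the transcription start site (TSS). Mammalian genomes also carry many processed copies of ribosomal protein genes, which share exon sequence with the genes themselves.

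The sequences around the starts of the members were examined for these features. RefSeq promoters (build GRCm38.p6, 300 bases from 250 before to 50 after the TSS) were matched by symbol for 35 of the 44 genes, with 42 listed starts; Rpl3, Rpl7, Rpl8, Rpl30, Rpl32, Rplp1, Rps14, Rps20 and Rps29 had no entry. A TOP-like start, defined as C at the TSS followed by at least 4 C or T, was found at 9 of the 42 starts (21.4%) and at 2.51% of all 32851 starts in the table. The 9 are printed here from 25 bases before the TSS to 25 bases from it on, to show the letters that met this definition. Capitals mark the pyrimidine run from the TSS on.
Rpl35: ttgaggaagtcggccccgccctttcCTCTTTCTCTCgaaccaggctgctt
Rps21: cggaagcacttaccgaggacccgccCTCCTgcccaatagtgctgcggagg
Rps6: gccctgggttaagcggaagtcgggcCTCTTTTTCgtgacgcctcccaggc
Rpl28: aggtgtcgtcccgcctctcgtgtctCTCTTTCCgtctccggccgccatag
Rplp2: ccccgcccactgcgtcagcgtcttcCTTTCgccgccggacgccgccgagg
Rpl14: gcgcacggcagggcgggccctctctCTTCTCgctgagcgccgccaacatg
Rpl38: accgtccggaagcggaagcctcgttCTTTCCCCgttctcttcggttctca
Rpl15: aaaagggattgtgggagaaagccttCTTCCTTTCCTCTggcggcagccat
Rps18: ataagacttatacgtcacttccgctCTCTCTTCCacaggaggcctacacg

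Counted from the TSS on, the run of pyrimidines ranged from 5 bases in Rps21 and Rplp2 to 13 in Rpl15. Pyrimidines directly before the TSS, which several windows show, were not counted. A run of this kind that began within 10 bases on either side of the listed TSS was present at 23 of the 42 starts (54.8%) and at 30.7% of all starts; this wider search was added after the strict one was seen. The letters CCGGAAG, the core bound by ETS factors, stood on either strand at 16 of the 42 starts (38.1%), of 15 genes, against 8.86% of all starts. GGGCGG, bound by SP1, stood at 25 (59.5%), of 21 genes, against 35.7%. Of the matched genes, 6 had more than 1 listed start, so the same bases can count more than once. AAGATGG, read by YY1, stood at few starts (3 starts, 7.14%, against 6.34%), and so did TATAAA, the letters of the TATA box (3 starts, 7.14%, against 13.6%). The TATAAA matches began 177 (Rpl22) and 137 (Rps2) bases before the TSS on the opposite strand, and 17 bases after it in Rplp0 and Rps2. These matches describe letters in a window and not binding. Rps6 was among the 5 members with the highest promoter H4K5ac-ChIP density in FC, and Rpl38 had the highest promoter ratio of FC to CON. Their promoters lie at chr4:86857343-86857617 (minus strand) and chr11:114668330-114668604 (plus strand) of GRCm38.p6. They are given from 250 bases before the TSS to 25 bases from it on, with the searched motifs in capitals.
Rps6: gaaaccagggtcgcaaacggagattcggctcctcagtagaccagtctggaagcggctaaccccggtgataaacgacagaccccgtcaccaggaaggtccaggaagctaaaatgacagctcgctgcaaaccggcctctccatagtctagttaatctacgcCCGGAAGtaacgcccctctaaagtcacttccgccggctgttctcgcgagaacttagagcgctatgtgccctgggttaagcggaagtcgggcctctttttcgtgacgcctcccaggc
Rpl38: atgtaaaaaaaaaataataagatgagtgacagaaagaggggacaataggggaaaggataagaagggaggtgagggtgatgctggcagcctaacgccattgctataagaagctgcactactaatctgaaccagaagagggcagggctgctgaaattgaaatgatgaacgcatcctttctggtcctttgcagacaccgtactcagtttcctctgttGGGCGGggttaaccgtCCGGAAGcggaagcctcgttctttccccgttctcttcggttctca
Rps6 held 1 CCGGAAG that began 91 bases before its TSS. Rpl38 held a GGGCGG that began 36 bases before the TSS and a CCGGAAG that began 20 bases before it.

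The libraries held between 14549689 (IgG-IP, FC) and 45673239 (input, FC) aligned reads, and read density is given as RPKM, the reads per kb of region per 1000000 aligned reads. As promoter, the 2 kb before the outermost annotated TSS were taken. Defining markers of hippocampal neurons stood near the typical gene: over the promoters of Camk2a, Snap25, Syt1, Neurod2 and Prox1 the pooled log2 ratio of H4K5ac-ChIP to input was 0.47 in FC and 0.58 in CON. The median of all protein-coding genes was 0.39 and 0.65, which is not the same measure as a pooled ratio. In median H4K5ac-ChIP density the markers had 0.649 RPKM in FC and 0.653 in CON, beside 0.633 and 0.598 for all protein-coding genes. Over Alb, Krt5, Myh6, Ins2 and Hbb-b1, which mark other tissues, the pooled log2 ratio to input was -0.39 and -0.77. Hippocampus is a mixture of cells, so a mark in fewer cells and less mark per cell cannot be told apart anywhere here.

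H4K5ac lay above both controls in the promoters of the ribosomal protein genes in FC and in CON. The promoter density of the 44 genes had a median of 0.886 RPKM in FC and 0.848 in CON, against 0.633 and 0.598 over all protein-coding genes, and 34 (FC) and 36 (CON) of the 44 stood above that median. In input the members were close to other genes, at 0.504 RPKM (FC) and 0.366 (CON) against 0.482 and 0.394. In IgG-IP they were lower than other genes, at 0.275 and 0.334 against 0.344 and 0.364. The 75th percentile of protein-coding genes was exceeded by 17 of the 44 in FC (38.6%) and 19 in CON (43.2%). That is more often than all genes exceed it by definition, though most members did not exceed it.

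Over input, the summed promoter reads gave a log2 ratio of 0.80 in FC (exact binomial 95% interval 0.72 to 0.89) and 1.16 in CON (1.06 to 1.26). The median over members was 0.83 in FC and 1.10 in CON, where all protein-coding genes with at least 10 reads over both libraries had 0.39 and 0.65; all 44 members passed that minimum. A ratio of at least 2-fold was reached by 16 of 44 members in FC (36.4%), beside 23.1% of protein-coding genes, and by 27 in CON (61.4%), beside 34.6%. In both groups at once it was reached, with members outside the naming rule named after their values were seen, by 14 members (31.8%), beside 17.2%: Rpl3, Rpl13, Rpl22, Rpl23, Rpl37, Rplp1, Rps3, Rps6, Rps9, Rps13, Rps14, Rps20, Rps23 and Rps25. The interval lay wholly above 0 for 26 members in FC (all protein-coding genes 40.0%) and for 38 in CON (47.6%). When each gene was set against genes of like GC content, in steps of 2%, the members' median was 0.32 in FC and 0.33 in CON, with 29 and 34 of 44 genes above 0.

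Over IgG-IP, the summed log2 ratio was 1.59 in FC (1.43 to 1.75) and 1.24 in CON (1.10 to 1.38), with medians of 1.59 and 1.15 beside 0.98 and 0.80 over all genes. At least 2-fold was reached by 33 members in FC (background 49.1%) and by 27 in CON (background 42.4%). FC stood below CON against input and above CON against IgG-IP, so the order of the groups depended on the control. IgG-IP gave only 3 to 18 reads per promoter in FC and 3 to 24 in CON, and ratios of single genes to it are accordingly wide.

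**Figure D1:**
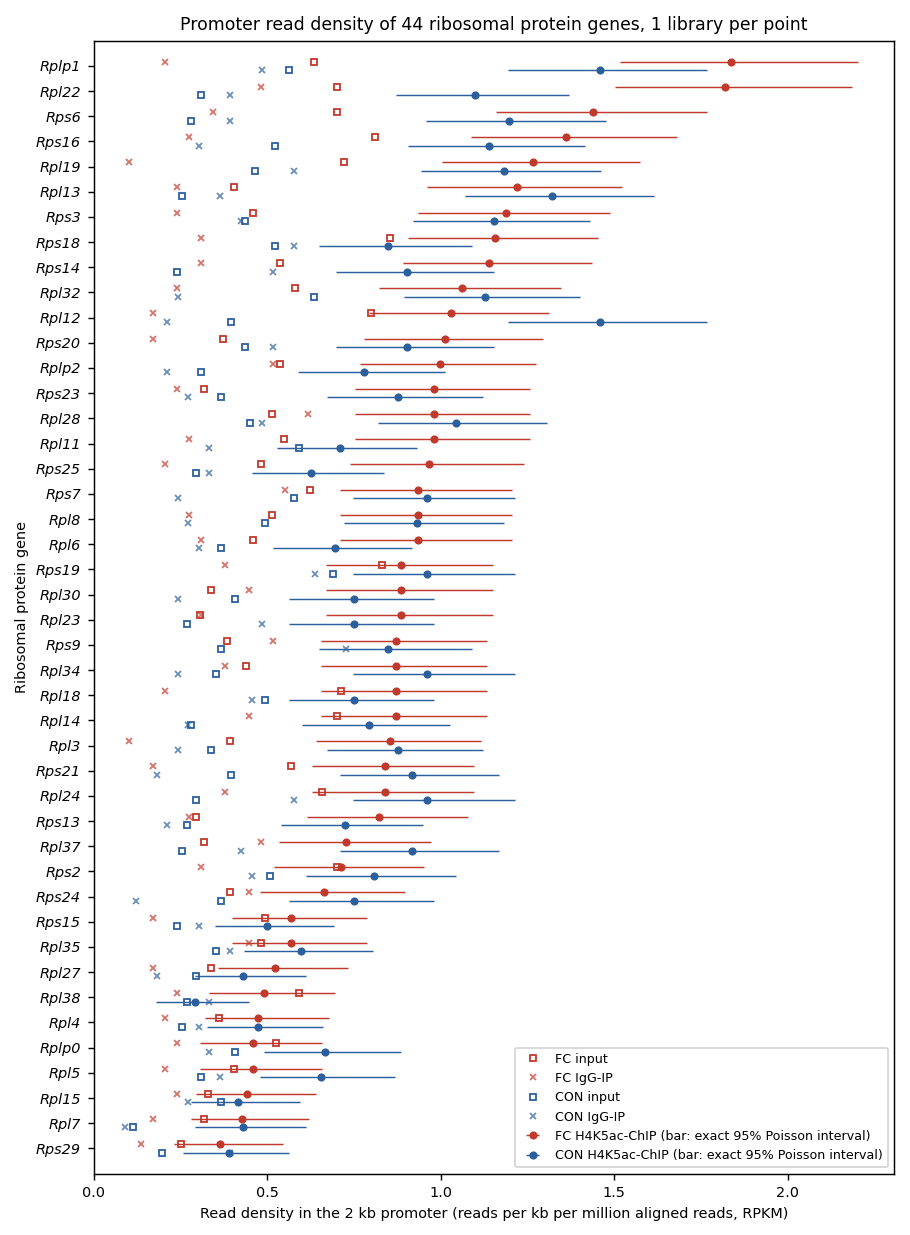
Read density in the 2 kb promoter (x axis, RPKM) of each of the 44 ribosomal protein genes (y axis, ordered by FC H4K5ac-ChIP). Filled circles are H4K5ac-ChIP with exact 95% Poisson intervals, open squares input and crosses IgG-IP, in red for FC and blue for CON. H4K5ac-ChIP ran from 0.364 to 1.84 RPKM in FC and from 0.292 to 1.46 in CON.

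In read density, the highest promoters in FC were those of Rplp1, Rpl22, Rps6, Rps16 and Rpl19. Across members, promoter H4K5ac-ChIP and input density had a Pearson r of 0.50 in FC and 0.43 in CON. The ratios of Rps16 and Rpl19 to input were below the members' median in FC and above it in CON. Rplp1, which pairs with Rplp2 on the flexible stalk that recruits elongation factors, (gene at chr9:61761091-61762345) led the list in FC and shared the first place with Rpl12 in CON, with 116 reads in FC and 105 in CON (1.84 RPKM in FC and 1.46 in CON), at percentile 99.3 of protein-coding genes in FC. Its controls held 58 (FC) and 40 (CON) reads in input and 6 and 16 in IgG-IP, and its log2 ratio to input stood at 1.53 (1.06 to 2.01) in FC and 1.37 (0.84 to 1.94) in CON. Rplp2 held 63 reads in FC and 56 in CON, between its partners. Rplp0, which anchors the pair to the ribosome, held only 29 reads in FC and 48 in CON, and its ratio to input was -0.20 in FC (-0.91 to 0.50) and 0.71 in CON (0.014 to 1.43). In FC the 3 stalk genes spanned nearly the whole range of the list, and the Poisson intervals of Rplp1 and Rplp0 did not overlap in either group.

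In the large subunit, promoter H4K5ac had a median of 0.870 RPKM in FC and 0.772 in CON. Rpl22 (chr4:151699851-151708180), an RNA-binding protein that is not essential for the ribosome and has a paralogue, Rpl22l1, held 115 reads in FC and 79 in CON, with 64 and 22 in input. Rpl19, which reaches across to the small subunit, held 80 reads in FC and 85 in CON. Its input held 66 and 33 reads, and its ratio to input was 0.81 in FC and 1.35 in CON. Rpl3, which lies beside the peptidyl transferase centre, was near the middle of the list with 54 reads in FC and 63 in CON and ratios to input of 1.12 (0.48 to 1.77) and 1.37 (0.67 to 2.12).

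Rpl5 and Rpl11 bind 5S ribosomal RNA together and, when ribosome assembly fails, bind the p53 regulator Mdm2. Rpl11 held 62 reads in FC and 51 in CON, with ratios to input of 0.84 in FC and 0.26 in CON, and Rpl5 held 29 reads in FC and 47 in CON, with 0.18 and 1.08. The partners ranked in opposite order over input in the 2 groups, within intervals that overlapped. Rpl38 (chr11:114529838-114533645), which favours translation of some Hox messages, was among the lowest, with 31 reads in FC and 21 in CON and ratios to input of -0.27 (-0.96 to 0.39) in FC and 0.13 (-0.84 to 1.10) in CON. Its H4K5ac-ChIP could not be told from input in either group at this depth.

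In the small subunit, the median was 0.933 RPKM in FC and 0.876 in CON, and the summed ratio to input was 0.81 in FC and 1.11 in CON, beside 0.77 and 1.19 for the large subunit. The intervals of the 2 subunits overlapped in both groups. Rps6 (chr4:86500564-86503316), the substrate of S6 kinase downstream of mTOR, held 91 reads in FC and 86 in CON, and its ratio to input was 1.04 in FC and 2.09 in CON, with 64 and 20 input reads. Rps16, whose tail reaches the P-site tRNA, held 86 reads in FC and 82 in CON. Its input held 74 and 37 reads, and its ratio to input was 0.75 in FC and 1.13 in CON. Rps3, at the mRNA entry channel, held 75 reads in FC and 83 in CON, Rps14 on the platform held 72 reads in FC and 65 in CON, and Rps19, mutated in Diamond-Blackfan anaemia, held 56 reads in FC and 69 in CON. The H4K5ac density of Rps19 was at the members' median in FC (0.886 RPKM) and above it in CON (0.959 RPKM). Its input was high (76 and 49 reads), and its ratio to input was 0.091 in FC (-0.43 to 0.61) and 0.47 in CON (-0.074 to 1.03).

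The lowest 5 promoters in FC were Rps29, Rpl7, Rpl15, Rpl5 and Rplp0. Rps29 (chr12:70258709-70260173), a zinc-binding protein of the small subunit head, held 23 reads in FC and 28 in CON, at percentile 28.4 of protein-coding genes in FC. Rpl7 held 27 reads in FC and 31 in CON and had the promoter with the highest GC content of the list, 66.5%; its promoter or body overlaps the gene Rdh10. Rpl15 held 28 reads in FC and 30 in CON. No member fell below 10 H4K5ac reads in promoter or gene body.

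Promoters were ordered alike in both groups, and gene bodies less so. Across the 44 genes, promoter H4K5ac density in FC and CON had a Pearson r of 0.81 and a Spearman rho of 0.79; the same figures were 0.55 and 0.52 for input and 0.16 and 0.16 for IgG-IP. Over gene bodies, H4K5ac in FC and CON had an r of 0.55 and a rho of 0.49. These are descriptions across genes, which are not replicates, and each pair shares the mappability and base composition of the same windows. The variance of H4K5ac reads over promoters was 7.70 times their mean in FC and 6.43 times in CON, where counting error alone gives a ratio of 1. In input it was 4.81 and 2.93, and in IgG-IP 1.59 and 1.83.

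GC content was weakly related to promoter H4K5ac across members, with a Pearson r of 0.0057 in FC and 0.011 in CON and a Spearman rho of 0.16 and 0.18. With input density it had an r of 0.34 in FC and -0.051 in CON and a rho of 0.53 and 0.10. The part of GC content in the FC ratios of single genes to input was not tested. The promoters had a median GC content of 45.8%, beside 46.1% for all genes. CpG dinucleotides were less depleted than elsewhere near the start: in the 300 bases around the TSS (NCBI Build 37) the ratio of observed to expected CpG had a median of 0.765, beside 0.534, and 35 of 44 members exceeded 0.6, as did 45.1% of protein-coding genes. In 16 members the introns host small nucleolar RNAs, 25 in all, which guide the modification of ribosomal RNA. Host genes had a median promoter density of 0.910 RPKM in FC and 0.841 in CON, and the other 28 members had 0.870 and 0.848.

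Around the TSS, H4K5ac formed a broad rise on the upstream side and, in read density, a trough just inside the gene. Reads were placed at the centre of their fragment by a shift of 75 bp and summed over the 44 genes in steps of 100 bp. The highest step lay 400 to 300 bp upstream in FC (1.37 RPKM) and 600 to 500 bp upstream in CON (1.28 RPKM). FC had 1.27 RPKM at 600 to 500 bp. Over input the highest log2 ratio in CON lay 300 to 200 bp upstream (1.74, 1.26 to 2.25), with 1.48 (1.08 to 1.89) at 600 to 500 bp. Single steps thus do not place the peak apart in the 2 groups. The lowest step of the first 1 kb of the genes lay 200 to 300 bp downstream in both (0.431 and 0.430 RPKM). From 1 kb to 200 bp upstream the summed log2 ratio to input stood at 1.27 (1.14 to 1.40) in FC and 1.49 (1.34 to 1.65) in CON. Within 200 bp on either side of the TSS it was 0.83 (0.63 to 1.03) and 1.14 (0.88 to 1.40), and from 200 bp to 1 kb downstream 0.50 (0.35 to 0.66) and 0.86 (0.67 to 1.04).

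The rise was local. From 3 to 2 kb upstream the ratio was 0.15 in FC and 0.57 in CON, and from 2 to 3 kb downstream 0.19 and 0.68. The controls dipped at the trough too: in the step 200 to 300 bp downstream, FC input was at 0.338 RPKM and CON input at 0.199, and FC and CON IgG-IP were at 0.141 and 0.152, where the stretch from 1 kb to 200 bp upstream had 0.475, 0.371, 0.277 and 0.345. Relative to input, the log2 ratio in that step stood at 0.35 (-0.17 to 0.87) in FC and 1.11 (0.48 to 1.78) in CON, so the CON ratio showed no trough against the 0.86 of the whole stretch to 1 kb downstream. The part of the controls in the H4K5ac trough was not tested. Taken gene by gene, the median density from 1 kb to 200 bp upstream was 1.09 RPKM in FC and 1.03 in CON for the members, and 0.672 and 0.626 for all protein-coding genes. Within 200 bp of the TSS the medians were 0.870 and 0.556 for the members and 0.396 and 0.278 for all genes.

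**Figure D2:**
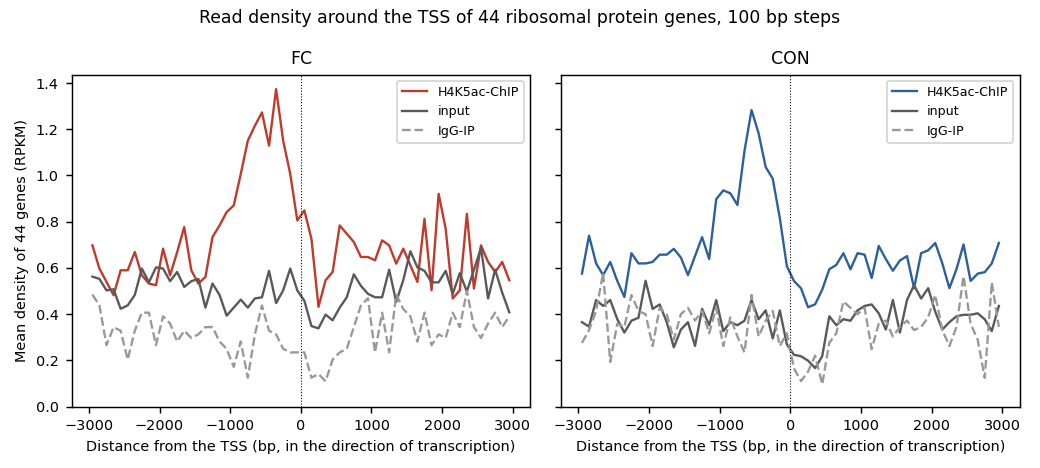
Mean read density of the 44 genes (y axis, RPKM) against the distance from the TSS (x axis, bp, positive into the gene) in steps of 100 bp, for FC on the left and CON on the right. Coloured lines are H4K5ac-ChIP, solid grey lines input and dashed grey lines IgG-IP; H4K5ac-ChIP peaks within 600 bp upstream at 1.37 (FC) and 1.28 RPKM (CON) while both controls stay below it there.

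Across the gene bodies, from the outermost TSS to the outermost transcript end, the mark was weaker and more even. The median density was 0.605 RPKM in FC and 0.610 in CON, beside 0.549 and 0.541 for all genes, and it ran from 0.423 to 1.24 RPKM in FC and from 0.381 to 0.909 in CON. The summed log2 ratio to input stood at 0.34 (0.28 to 0.39) in FC and 0.65 (0.58 to 0.71) in CON, and to IgG-IP 0.90 (0.80 to 0.99) and 0.82 (0.73 to 0.91). The medians over members, 0.31 (FC) and 0.67 (CON) over input, stood beside 0.18 and 0.45 for all genes; over IgG-IP they were 1.00 and 0.86 beside 0.67 and 0.58. Against genes of like GC content the members' medians were 0.14 (FC) and 0.088 (CON) over input and 0.10 and 0.054 over IgG-IP. At least 2-fold over input was reached by 4 members in FC (background 4.15%) and 7 in CON (background 14.2%), and over IgG-IP by 21 (32.3%) and 16 (24.3%). The highest bodies were those of Rpl38 (1.24 RPKM in FC and 0.774 in CON) and Rps3 (0.904 RPKM in FC and 0.909 in CON), and both led the list in each group. Only Rps15 and Rps23 reached it over input in both groups, 2 of 44 beside 2.39% of all genes, and Rps23 is named because its value was seen.

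Promoter and body levels were not tied together across members. The Pearson r between them was -0.10 in FC and 0.20 in CON. Promoters were denser than bodies in H4K5ac-ChIP in 34 of 44 genes in FC (background 61.8% of protein-coding genes) and 37 in CON (61.0%), with a summed log2 ratio of promoter to body of 0.51 (0.44 to 0.58) and 0.47 (0.41 to 0.54), beside 0.26 and 0.17 over all genes. In input the same ratio stood at 0.039 (-0.035 to 0.11) in FC and -0.035 (-0.13 to 0.062) in CON, intervals that both include 0. The genes are compact, with a median length of 3676 bp beside 15427 bp, and 2 annotated intervals are much longer than the rest: Rpl24 (chr16:55966388-56009026, 42639 bp) and Rpl11 (chr4:135584180-135609343, 25164 bp). These 2 genes held 840 and 474 of the 4492 FC body reads and weigh heavily in the summed body ratios.

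Between the groups, H4K5ac on the ribosomal protein genes differed little. At promoters the summed log2 ratio of FC to CON was 0.097 (0.018 to 0.18), with a median over members of 0.063 beside 0.087 over all genes; 26 members were above 0 and 18 below. In gene bodies it was 0.065 (0.0059 to 0.12), with a median of 0.039 beside 0.040. Neither exclusion of 0 held under every setting: promoters of 5 kb gave 0.015 (-0.040 to 0.071), bodies without their first 1 kb 0.011 (-0.055 to 0.076) and bodies with 1 read per position and strand 0.049 (-0.014 to 0.11). Other settings gave higher values: 1 kb on either side of the TSS gave 0.19 (0.11 to 0.27). Members that overlap no other gene gave 0.15 (0.053 to 0.24) at promoters and 0.12 (0.047 to 0.20) in bodies. At least 1.5-fold higher in FC were 3 promoters (background 11.4%) and 3 bodies (4.84%), and at least 1.5-fold lower were 0 promoters (6.78%) and 0 bodies (2.02%). The counting interval excluded 0 upward for 2 promoters, Rpl22 and Rps25 (background 7.15%), and downward for 1, Rpl12 (2.60%). In bodies it did so upward for 3, Rpl35, Rpl38 and Rps7 (15.2%), and downward for 0 (9.51%); Rpl35 is named because its value was seen, and longer genes hold more reads and narrower intervals. The 3 bodies at least 1.5-fold higher are 6.82% of the members, above the background by about 1 gene, and the other shares were below the background.

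The input libraries differed more between the groups than the H4K5ac libraries did. Over the same promoters the input ratio of FC to CON was 0.45 (0.35 to 0.56) and the IgG-IP ratio -0.25 (-0.45 to -0.061), and over the bodies they were 0.38 (0.31 to 0.44) and -0.0099 (-0.13 to 0.11). Over all protein-coding promoters the input ratio rose with GC content, from a median of 0.096 at 42 to 44% GC to 0.64 at 52 to 54%, while the H4K5ac ratio went from 0.020 to 0.17. Subtracting the input ratio turned the members' promoter value from 0.097 to -0.36, and subtracting the IgG-IP ratio gave 0.35. Within 200 bp of the TSS, H4K5ac was 0.45 (0.25 to 0.65) higher in FC on the log2 scale, with input 0.76 (0.50 to 1.02) higher and IgG-IP at -0.046 (-0.60 to 0.51). The typical protein-coding gene was higher in FC in this zone too, with a median H4K5ac density of 0.396 RPKM in FC and 0.278 in CON. The part of the input difference in these values was not tested.

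The promoters of Rpl38, Rpl22 and Rps25 stood furthest up in FC. Rpl38 held 31 promoter reads in FC and 21 in CON, a log2 ratio of 0.75 (-0.097 to 1.62); its input ratio was 1.14, from 54 and 19 reads. Rpl22 held 115 promoter reads in FC and 79 in CON, a log2 ratio of 0.73 (0.30 to 1.16), and its input ratio was 1.18 (64 and 22 reads). Rps25, a small-subunit protein needed by some viral internal ribosome entry sites, held 61 promoter reads in FC and 45 in CON, a log2 ratio of 0.63 (0.046 to 1.21), with an input ratio of 0.70. In this 2 kb window the input library moved the same way by as much or more in all 3. Within 1 kb on either side of the TSS this did not hold for Rpl38, at 1.28 (0.52 to 2.08) with an input ratio of 0.67. It held there for Rpl22 (0.55, input 1.81) and Rps25 (0.57, input 0.71).

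Furthest down were Rplp0, Rpl12 and Rpl5. Rplp0 held 29 promoter reads in FC and 48 in CON, a log2 ratio of -0.54 (-1.26 to 0.15). Rpl12, at the base of the stalk, held 65 promoter reads in FC and 105 in CON, a log2 ratio of -0.51 (-0.97 to -0.046), while its input went the other way, from 28 reads in CON to 73 in FC. Its ratio to input stood at 0.36 (-0.14 to 0.87) in FC and 1.89 (1.27 to 2.54) in CON, the widest gap between the groups in that direction among the 44. Its promoter or body overlaps the gene Lrsam1, and its promoter GC content was 53.1%. Rpl5 held 29 promoter reads in FC and 47 in CON, a log2 ratio of -0.51 (-1.23 to 0.19). Both the Rplp0 and the Rpl5 interval include 0.

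In gene bodies, Rpl38 was again furthest up, with 149 body reads in FC and 106 in CON, a log2 ratio of 0.68 (0.31 to 1.05), at 1.24 RPKM in FC and 0.774 in CON. Its body density in FC was the highest of the 44 genes, although its promoter was among the lowest. Input over the same body was 0.54 higher in FC (107 and 57 reads), and its ratio to input stood at 1.01 (0.64 to 1.38) in FC and 0.88 (0.40 to 1.37) in CON. Rps7, a small-subunit protein that also binds Mdm2, held 121 body reads in FC and 87 in CON, a log2 ratio of 0.66 (0.25 to 1.08), with an input ratio of 0.48. Rps15, of the small subunit head, held 42 body reads in FC and 31 in CON, a log2 ratio of 0.62 (-0.080 to 1.34), with an input ratio of 0.96. Furthest down were Rpl19, with 54 body reads in FC and 84 in CON, a log2 ratio of -0.45 (-0.97 to 0.059), Rps21, with 16 body reads in FC and 23 in CON, a log2 ratio of -0.34 (-1.36 to 0.65), and Rpl37, with 48 body reads in FC and 69 in CON, a log2 ratio of -0.34 (-0.90 to 0.22); all 3 intervals include 0. Of these only Rpl38 was among the furthest 3 in the same direction at promoter and body.

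**Figure D3:**
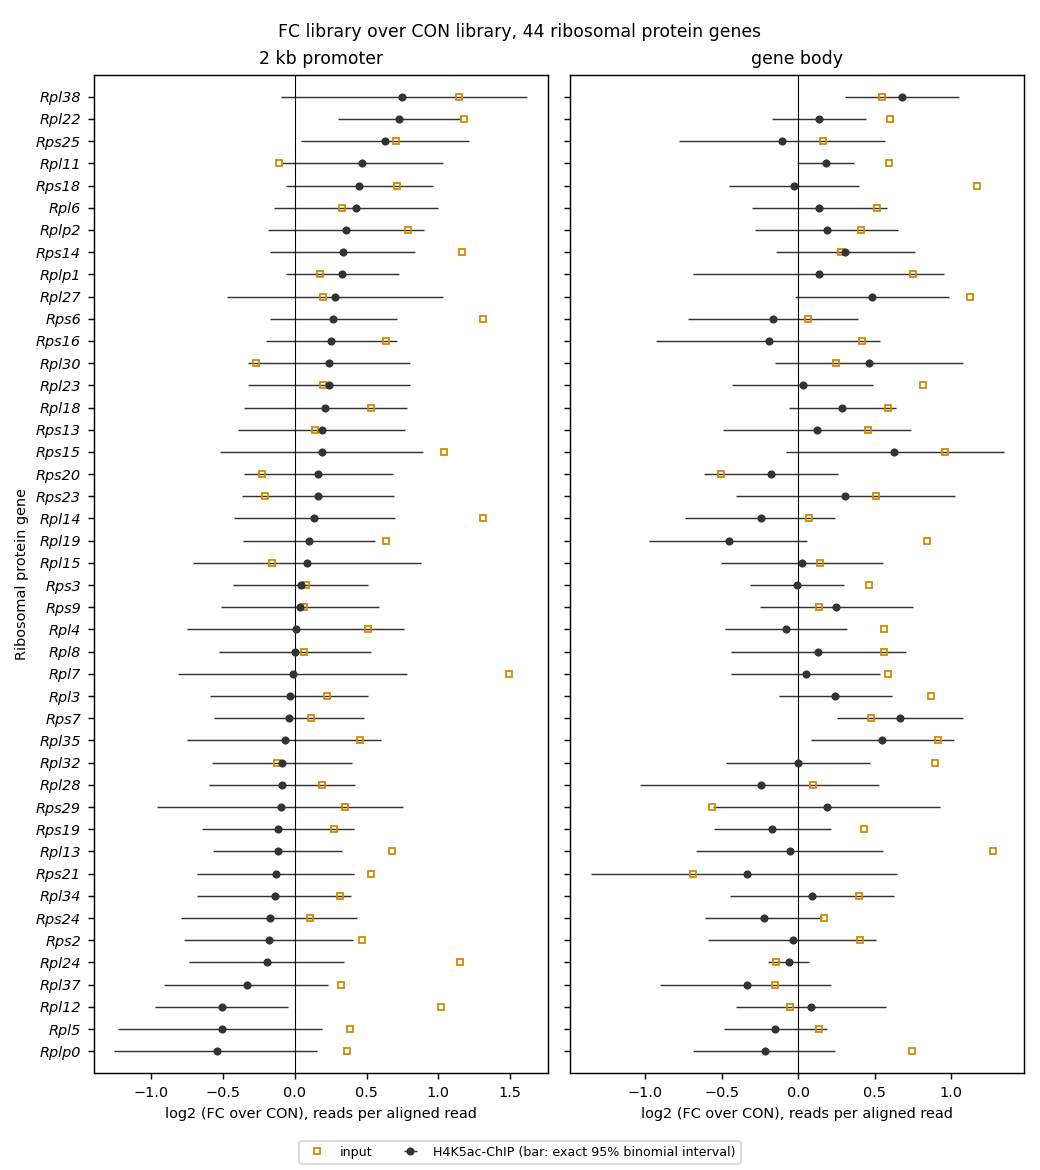
Log2 ratio of the FC to the CON library (x axis) for each of the 44 genes (y axis, ordered by the promoter ratio), at the 2 kb promoter on the left and the gene body on the right. Filled circles are H4K5ac-ChIP with exact 95% binomial intervals and open squares input; the H4K5ac ratios lie between -0.54 and 0.75 at promoters and between -0.45 and 0.68 in bodies.

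Because copies of ribosomal protein genes are scattered through the genome, the exons were examined for shared sequence. Every 50-base sequence of the members was looked up in the whole genome on both strands: a median of 18.8% of exon positions per gene (range 1.23% to 60.7%) had a copy elsewhere, and a median of 0% of intron positions. Exons were merged over all annotated transcripts of a gene, so bases that are intron in some transcripts can count as exon. In Rps3, for instance, 4483 of 5843 bases counted as exon. Exons had the larger repeated share in 42 of 44 genes. Rps23 (60.7%) and Rpl3 (57.9%) had the highest shares, and Rps3 the lowest. Reads were almost absent from these positions: in FC H4K5ac-ChIP, 1544 of 1548 exon reads had their midpoint where the sequence occurs once, although 84215 exon bases include only 70836 such bases.

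The contrast between exons and introns depended on these positions. Over all bases, exons were less dense than introns in every library: the log2 ratio was -0.17 (-0.26 to -0.082) in FC H4K5ac-ChIP, -0.27 (-0.36 to -0.18) in CON H4K5ac-ChIP, -0.18 in FC input and -0.24 in CON input. Over bases whose sequence occurs once it was 0.031 (-0.059 to 0.12), -0.067 (-0.15 to 0.020), 0.031 and -0.039, and all 6 intervals included 0. H4K5ac-ChIP and input had exon to intron ratios with overlapping counting intervals in each group. The effect of merging the exons of all transcripts on these ratios was not tested. Mapping scores below 20 were held by 5.88% of exon and 6.10% of intron reads in FC H4K5ac-ChIP and by 5.83% and 6.37% in CON. The share was higher in exons in all 4 control libraries, most in CON IgG-IP (10.7% and 8.83%).

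**Figure D4:**
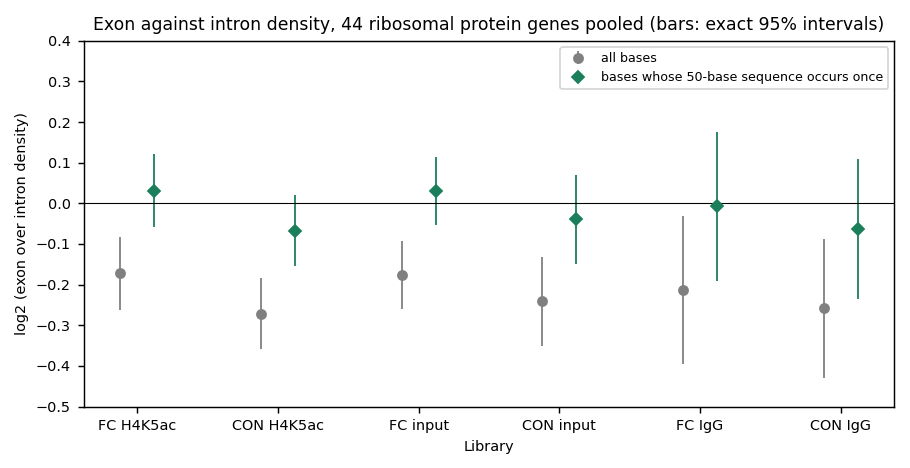
Log2 ratio of exon to intron read density summed over the 44 genes (y axis) in each of the 6 libraries (x axis). Grey circles use all bases and green diamonds the bases whose 50-base sequence occurs once in the genome, with exact 95% intervals; the grey values lie between -0.27 and -0.17 and the green ones between -0.067 and 0.031.

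In reads summed over the pseudogene copies, H4K5ac-ChIP lay below input in FC and could not be told from input in CON. The annotation held 100 ribosomal protein pseudogenes of the named series, 49 of them copies of 25 members, with a median length of 478 bp. Their summed H4K5ac-ChIP reads were 359 in FC and 347 in CON, against 745 and 383 in input, a log2 ratio of -0.52 (-0.71 to -0.34) in FC and -0.16 (-0.38 to 0.052) in CON. Over IgG-IP the ratios were 0.19 (-0.093 to 0.48) and 0.21 (-0.083 to 0.50). Over input the summed reads in the gene bodies of the members gave 0.34 and 0.65 in the same libraries. Few copies held many reads: at least 10 over H4K5ac-ChIP and input were held by 46 of 100 in FC and 26 in CON. Their median log2 ratio was -0.91 in FC and 0.48 in CON. Over IgG-IP, 16 copies in FC and 18 in CON reached that minimum, with medians of 1.25 and 0.51. In the pseudogenes the median mapping score of H4K5ac reads was 47 in FC and 43 in CON, against 86 and 83 in the members' exons, and a median of 39.9% of their positions had a copy elsewhere.

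Related lists of housekeeping genes reached 2-fold over input at least as often as the members, of which 16 and 27 of 44 did in FC and CON, beside 23.1% and 34.6% of all genes. The other 31 cytoplasmic ribosomal protein genes of the annotation had a median promoter density of 0.949 RPKM in FC and 0.904 in CON, with 15 and 21 of 31 at least 2-fold over input in FC and CON. Translation factors, which start and elongate protein chains, had 0.910 RPKM in FC and 0.827 in CON, with 8 and 10 of 14 at least 2-fold. The 76 genes of the mitochondrial ribosome had 0.989 RPKM in FC and 0.932 in CON, with 37 and 52 of 76, and 91 nuclear genes of the respiratory chain had 0.981 RPKM in FC and 0.876 in CON, with 44 and 57 of 91. These are descriptions of lists, and no difference between them was tested. The paralogues of ribosomal proteins (Rpl3l, Rpl7l1, Rpl10l, Rpl22l1, Rpl39l, Rps27l) were spread from 0.127 to 1.39 RPKM in FC, around a median of 0.577. Olfactory receptors, expressed in the nose, had a median of 0.111 RPKM in FC and 0.111 in CON, below the lowest member in either group. Single receptors reached 0.886 RPKM in FC and 0.959 in CON. Their median input density was 0.208 RPKM in FC and 0.380 in CON, beside 0.482 and 0.394 for all genes.

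**Figure D5:**
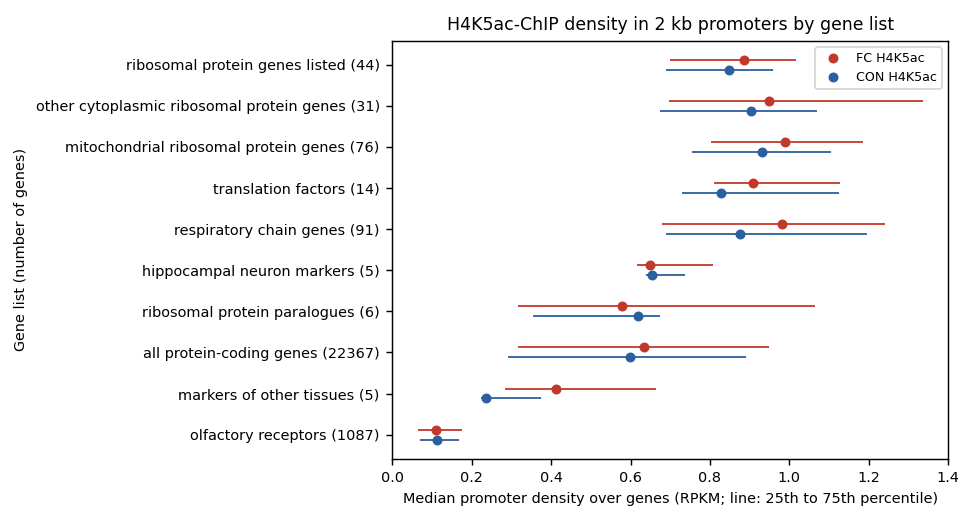
Median H4K5ac-ChIP density in the 2 kb promoter (x axis, RPKM) for each gene list (y axis, number of genes in brackets), in red for FC and blue for CON, with lines from the 25th to the 75th percentile over genes. The 44 ribosomal protein genes sit at 0.886 (FC) and 0.848 (CON), above all protein-coding genes at 0.633 and 0.598.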

How the data were processed

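The study sequenced H4K5ac-ChIP, IgG-IP and input DNA on the SOLiD platform as 50-base reads, aligned in Bioscope to mm9 with up to 10 mappings and 6 colour mismatches per read. The deposited files list 1 aligned read per line, with position, strand and the aligner's mapping score of 4 to 100, not normalized by the authors; each group had 1 library of each kind, with 14549689 to 45673239 reads. Reads overlapping each promoter and gene body (GENCODE M1, NCBI Build 37) were counted in Python 3.11.15 with NumPy 2.4.6 and SciPy 1.17.1, all reads kept, and scaled by aligned reads. Intervals are exact Poisson for a density and exact Clopper-Pearson for a ratio, at 95%. Medians of log2 ratios over genes used genes with at least 10 reads over the 2 libraries compared, and medians of density used all genes. Counting and intervals were tested on simulated data. The members and gene lists were chosen with earlier results of these data known. Genes named are those with fixed roles in the ribosome, the 5 highest and 5 lowest promoters in FC, the 3 furthest up and down between groups, and those with TOP-like starts. Alternatives covered repeated reads, scores of at least 20, windows, scaling, GC content, overlapping genes and controls; their effect is given in the closing section.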

Additional observations from a re-analysis of the deposited data

How the results depend on the processing

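Of the values recomputed under the alternatives, all as log2 ratios, 61 stayed within the counting interval of the reported value where it has one, 37 left it with the same sign and 3 changed sign. The 6 differences between the members' median and that of all genes, which have no such interval, kept their sign without the minimum of reads. A promoter of 5 kb gave 0.47 for promoters over input in FC, 0.87 for promoters over input in CON, 1.16 for promoters over IgG-IP in FC, 0.98 for promoters over IgG-IP in CON and 0.015 for promoters FC over CON. The window of 1 kb on either side of the TSS gave 0.92 for promoters over input in FC, 1.75 for promoters over IgG-IP in FC and 0.19 for promoters FC over CON. Scaling to the median protein-coding gene gave 0.41 for promoters over input in FC, 0.51 for promoters over input in CON, 0.61 for promoters over IgG-IP in FC, 0.44 for promoters over IgG-IP in CON, 0.010 for promoters FC over CON, 0.15 for bodies over input in FC, 0.19 for bodies over input in CON, 0.23 for bodies over IgG-IP in FC and 0.24 for bodies over IgG-IP in CON. The 30 members that overlap no other gene gave 0.92 for promoters over input in FC, 0.26 for bodies over input in FC and 0.12 for bodies FC over CON. Adjustment for GC content gave 0.30 for promoters over input in FC, 0.40 for promoters over input in CON, 0.52 for promoters over IgG-IP in FC, 0.33 for promoters over IgG-IP in CON, 0.013 for promoters FC over CON, 0.17 for bodies over input in FC, 0.13 for bodies over input in CON, 0.077 for bodies over IgG-IP in FC, 0.15 for bodies over IgG-IP in CON and 0.0029 for bodies FC over CON. Subtracting the input ratio gave -0.36 for promoters FC over CON and -0.31 for bodies FC over CON. Subtracting the IgG-IP ratio gave 0.35 for promoters FC over CON. Bodies without their first 1 kb gave 0.27 for bodies over input in FC, 0.58 for bodies over input in CON and 0.78 for bodies over IgG-IP in FC. Counting 1 read per position and strand gave 0.80 for bodies over IgG-IP in FC. Bases whose sequence occurs once gave 0.031 for exons over introns in FC and -0.067 for exons over introns in CON. Density in place of the ratio to input gave 0.75 for the upstream zone over the TSS zone in CON. The values that changed sign were the FC over CON ratios less input and the FC exon ratio at bases that occur once; the cause was not tested. A score of at least 20, the read midpoint and transcript -001 moved none of the values beyond that interval. For bodies FC over CON, whose interval excludes 0, leaving out the first 1 kb gave 0.011 (-0.055 to 0.076) and 1 read per position and strand gave 0.049 (-0.014 to 0.11), and both intervals include 0. No paired analysis was possible because each group has 1 library of each kind. Depth limits single genes most in IgG-IP, which gave 3 to 24 reads per promoter. The intervals leave out the spread between mice, which 1 library per group cannot show.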
